A study of Homo sapiens with 6 samples.

Results

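The comparison set cells that had carried active p53 for 16 h and then recovered for 6 h against cells in which p53 was never activated, and asked which transcripts had not returned. HT29-tsp53 is the human colorectal adenocarcinoma line HT-29 with a transgene for a temperature-sensitive mouse p53, the V135A variant, which works at 32 °C and does not at the restrictive temperature. Control arrays held cells kept at the restrictive temperature, p53 on arrays held cells moved to 32 °C for 16 h, and recovery arrays held cells that were returned to the restrictive temperature for 6 h after those 16 h. All 3 groups carry the transgene. The members were the 4 recovery and control arrays of 6 in all, chosen by title and paired by the experiment number, 1 or 2, in the title and description. The 2 p53 on arrays enter the mean signal by which dim genes were left out and the estimate of spread. Their values and their own tests against control and recovery are given side by side. They also picked the genes of a later figure and the sets read across experiments at the end.

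The model has limits that the labels show. The restrictive temperature is 38 °C in most labels and 37 °C in others, and 1 label of the recovery samples names 32 °C for the last 6 h where their title, description and temperature give a return. No line without the transgene is among the samples, so an earlier stay at 32 °C and earlier p53 activity cannot be told apart as the source of any difference. The labels speak of 1 dish per treatment and do not say whether the 2 experiments were independent beyond their number, so the p-values measure the spread between these arrays. Of 12 markers of colonic epithelium, the labelled tissue of origin, 11 were over the dim-gene value, a mean log2 signal of 3.62 under which genes were left out. The exception was CDH17, an intestinal cadherin, with a mean log2 signal of 2.53.

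p53 is a transcription factor that switches on genes of cell cycle arrest, apoptosis, DNA repair and its own breakdown, and that lowers cell cycle genes largely through the p21 protein and the DREAM repressor complex. After a block is lifted, cells re-enter the cycle through G1 and replicate DNA before they reach mitosis.

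Few genes were called against the never-activated control. Of 14025 genes tested, 29 were called higher after recovery (0.207%) and 55 lower (0.392%), or 0.599% in either direction, in limma with a replicate block for the experiment and a Benjamini-Hochberg adjusted p under 0.05. The rises were led by CRYAB, the small heat shock protein alpha-B crystallin, by PLTP, the phospholipid transfer protein, and by the cytidine deaminase gene APOBEC3C. The falls were led by replication-dependent histone genes and by genes of mitosis such as CENPE, a kinetochore motor. The median absolute difference from control was 0.18 log2 units over all genes, beside 0.25 for p53 on against control. In all, 134 genes differed by over 1 log2 unit after recovery, beside 640 with p53 on.

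The calls rest on the pairing of arrays by experiment. Without the block, limma called 4 genes higher (0.0285%), namely APOBEC3C, CRYAB, PLTP and SCGB1A1, and 0 lower (0.0%), while 404 and 342 genes had an unadjusted p under 0.05. With the block, 926 genes (6.6%) were higher and 895 (6.38%) lower at an unadjusted p under 0.05. Each control array weighed heavily. Without control array 1 the counts were 14 higher and 7 lower, and without control array 2 they were 13 and 4. Without recovery array 1 they were 30 and 52, of which 20 and 21 were among the calls made with all arrays, and without recovery array 2 they were 17 and 17. Without either p53 on array they were 94 and 152.

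All 84 called genes had the same sign in both experiments, beside 61.0% of all genes tested. Of the 29 higher genes, 28 had both recovery arrays above both control arrays, which held for 20.4% of all genes. Of the 55 lower genes, 46 had both recovery arrays below both control arrays, which held for 14.5%. A difference of at least 2-fold was seen for 28 of the higher and 54 of the lower genes. In both experiments taken singly, 25 genes were at least 2-fold higher and 36 at least 2-fold lower.

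**Figure D1:**
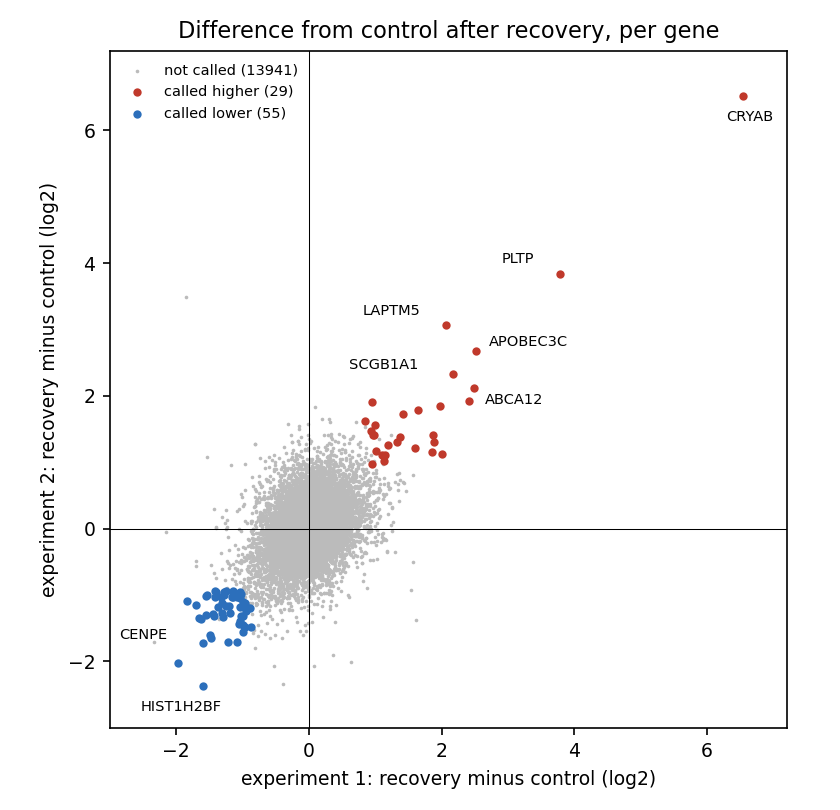
Difference between recovery and control in experiment 1 (x axis) and experiment 2 (y axis), in log2 units, with 1 point per gene; red marks the 29 genes called higher, blue the 55 called lower and grey the rest. CRYAB lies alone at 6.54 and 6.53, PLTP follows at 3.78 and 3.84, and all blue points lie below 0 in both experiments.

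Of 6 direct p53 targets that check the labels, 5 were not called against control, and CRYAB, described further on, was called higher. CDKN1A encodes p21, the inhibitor of cyclin-dependent kinases. Its log2 signals were 4.83 and 4.99 (control), 8.32 and 7.91 (p53 on) and 4.92 and 4.78 (recovery). The recovery and control arrays overlapped, at a difference of -0.06 ± 0.19 (limma SE, n = 2 arrays per group, as for every error below; adjusted p = 0.926). For MDM2, the ubiquitin ligase of p53, the difference was 0.09 ± 0.17 (adjusted p = 0.866). GADD45A, a growth arrest gene, differed by 0.35 ± 0.17 (adjusted p = 0.435), and the death receptor gene FAS by 0.44 ± 0.17 (adjusted p = 0.327). The gene TP53INP1, whose protein acts in p53-dependent stress responses, stood at 3.38 and 2.21 in control and 3.60 and 2.85 after recovery, under the dim-gene value of 3.62 on every one of these arrays, so no fold is given. The sign of the CDKN1A difference turned without control array 2, to 0.16.

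Over 5 lists of p53 targets, 104 genes were measured. After recovery 5 of them (4.81%) were called higher and 0 lower, where 0.207% and 0.392% of all genes were called. The median difference was 0.05 log2 units, beside 0.03 over all genes. Of the 104, 90 lay within 0.5 log2 units of control, a limit most genes met, as the median absolute difference over all genes was 0.18. Both recovery arrays were above both control arrays for 29 of the 104 (20.4% of all genes) and below for 14 (14.5%). With p53 on, 60 of the same 104 were called higher and 4 lower against control, where 5.18% and 6.28% of all genes were called, with a median of 0.91. The 5 higher after recovery were TP53I3, CRYAB, PLTP, APOBEC3C and ABCA12. The last 4 are on a list of other p53-responsive genes drawn up with earlier results of these arrays known, so their number there is no independent evidence. That list had 33 measured genes, 25 of them called higher with p53 on. The 60 calls and the median of 0.91 are therefore not independent evidence either.

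By role, the p53 targets of arrest and growth had 0 of 25 called in either direction, with a median of -0.04 after recovery and 0.95 with p53 on. In that list 1 gene was higher and 0 were lower at an unadjusted p under 0.05 in limma. The smallest p in the list belonged to GADD45B, at 0.41 ± 0.17 (adjusted p = 0.352). Targets of apoptosis and autophagy had 1 of 21 higher, with a median of 0.07. Targets of DNA repair and nucleotide supply had 0 of 14 called, with 2 higher and 0 lower unadjusted, and the lowest p was at MSH6, a mismatch repair gene, at 0.48 ± 0.17 (adjusted p = 0.28). Targets of feedback on p53 had 0 of 16 called, with 1 higher and 2 lower unadjusted.

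PHLDA3, a p53-induced inhibitor of AKT signalling, had the lowest p of the feedback list. Its log2 signals were 4.92 and 5.51 (control), 6.79 and 6.98 (p53 on) and 4.4 and 4.49 (recovery). Both recovery arrays lay below both control arrays, at -0.77 ± 0.19 (adjusted p = 0.135). Its 5 probe sets disagreed, with differences from -0.77 to 0.97, and the mean over probe sets put the gene at 0.17 in place of -0.77.

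CRYAB stood farthest from control. Its log2 signals were 2.55 and 2.51 (control), 10.16 and 9.71 (p53 on) and 9.09 and 9.03 (recovery). The recovery arrays lay far above both control arrays and below both p53 on arrays. Because the control level was under the dim-gene value, the rise is given as at least 43.5-fold (6.53 ± 0.18 log2 units as measured, adjusted p = 1.4e-06). Against p53 on, recovery differed by -0.88 ± 0.18 (adjusted p = 0.0277). All 5 of its probe sets were higher. CRYAB is also on the list of heat shock genes and chaperones, where it was the single call among 31 measured genes, and that list had a median of -0.09 with 23 of its genes below 0.

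PLTP, which moves phospholipids between lipoproteins, was the next. Its log2 signals were 5.02 and 4.74 (control), 9.43 and 8.89 (p53 on) and 8.80 and 8.58 (recovery). The recovery arrays were close to the p53 on arrays and did not overlap control. The rise was 14.0-fold (3.81 ± 0.18, adjusted p = 5.06e-05), with all 17 probe sets higher, while recovery against p53 on differed by -0.47 ± 0.18 (adjusted p = 0.154).

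APOBEC3C, a cytidine deaminase that restricts retroelements, is measured by 1 probe set. It stood at log2 signals of 4.33 and 4.27 (control), 8.15 and 7.93 (p53 on) and 6.85 and 6.95 (recovery). The recovery level lay between those of the other groups, 6.07-fold above control (2.60 ± 0.17, adjusted p = 0.000808) and lower than p53 on (-1.14 ± 0.17, adjusted p = 0.0088). APOBEC3 genes are close copies of each other, so the single probe set may also read a relative. SCGB1A1, the gene of the secreted uteroglobin of airway club cells, stood at 4.75 and 4.82 (control), 7.61 and 7.58 (p53 on) and 6.92 and 7.15 (recovery). Its recovery arrays lay 4.78-fold above control (2.26 ± 0.17, adjusted p = 0.00175). CRYAB, PLTP, APOBEC3C and SCGB1A1 were called under every alternative that tested them, each array left out in turn included.

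A further 5 genes lost the call only without the replicate block. LAPTM5, a lysosomal membrane protein gene of blood cells, stood at log2 signals of 3.95 and 3.40 (control), 6.89 and 6.78 (p53 on) and 6.01 and 6.47 (recovery). Both recovery arrays were above both control arrays, and the rise was 5.93-fold (2.57 ± 0.24, adjusted p = 0.00492). PTPRC, the defining leukocyte marker, lay between 1.39 and 2.05 on the 6 arrays, under the dim-gene value throughout. Of 7 measured leukocyte markers, 5 had a mean over that value, among them the lysozyme gene LYZ, and the log2 of their summed signal was 11.53 and 10.93 (control), 11.62 and 11.18 (p53 on) and 11.49 and 11.15 (recovery).

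ABCA12, a lipid transporter of the skin barrier, stood at log2 signals of 2.73 and 2.67 (control), 7.52 and 6.66 (p53 on) and 5.22 and 4.79 (recovery). It was at least 2.62-fold above control (2.31 ± 0.21 as measured, adjusted p = 0.00492) and lower than p53 on (-2.08 ± 0.21, adjusted p = 0.00197), and 53 of its 56 probe sets were higher than control. Its recovery level was thus well apart from both other groups. SERPINB7, a serine protease inhibitor gene, stood at 3.43 and 4.23 (control), 5.45 and 5.73 (p53 on) and 5.84 and 6.15 (recovery) (2.16 ± 0.19, adjusted p = 0.00492). LCN15, a lipocalin gene, was at least 3.59-fold above control (1.91 ± 0.19 as measured, adjusted p = 0.00659). AHNAK2, which encodes a very large scaffold protein, was 3.29-fold above control (1.72 ± 0.18, adjusted p = 0.00845).

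**Figure D2:**
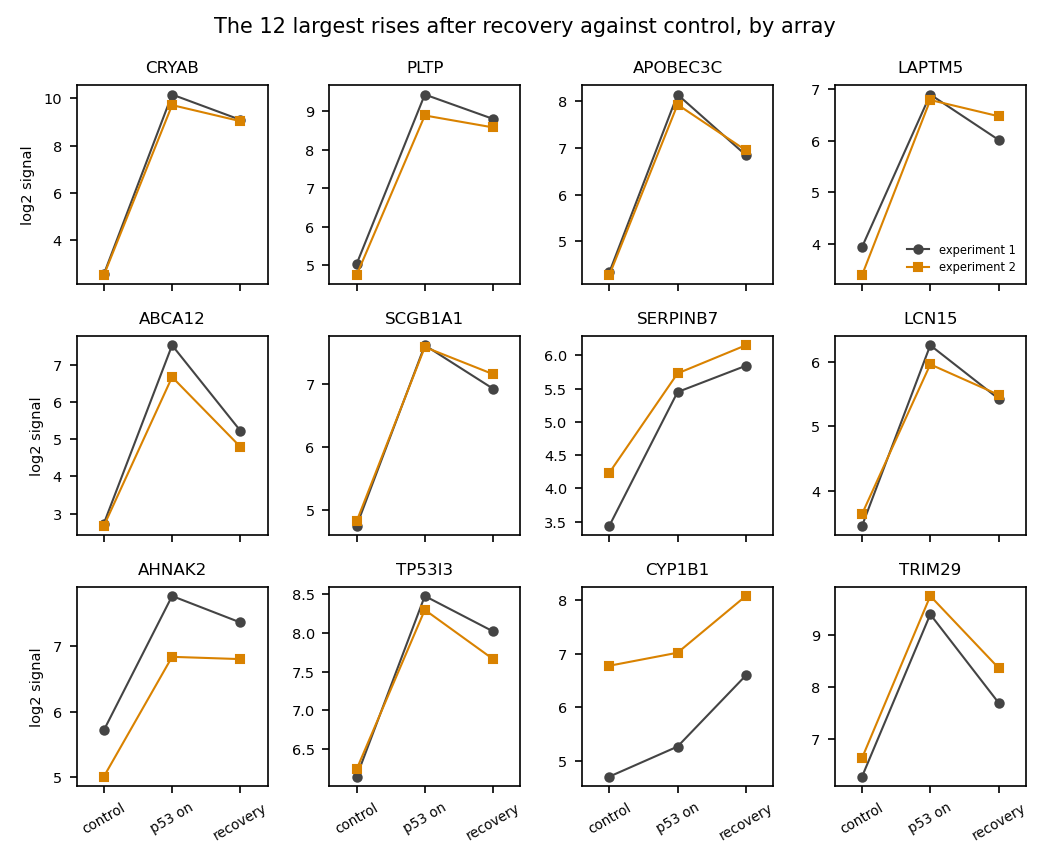
Log2 signal (y axis, a separate scale for each gene) in control, p53 on and recovery (x axis) for the 12 genes with the largest rises after recovery; each line joins the arrays of 1 experiment. In CRYAB and PLTP the recovery points lie near the p53 on points, in ABCA12 and TRIM29 they lie between the groups, and in CYP1B1 the experiments differ in level while both lines rise at recovery.

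TP53I3, a quinone oxidoreductase gene of the p53 apoptosis list, stood at log2 signals of 6.15 and 6.24 (control), 8.47 and 8.29 (p53 on) and 8.02 and 7.66 (recovery). Both recovery arrays were above control by 3.12-fold on average (1.64 ± 0.18, adjusted p = 0.0117), and all 10 probe sets were higher. The call was lost without control array 1 (adjusted p = 0.0597). TRIM29, a tripartite motif protein gene, stood at 6.27 and 6.63 (control), 9.39 and 9.75 (p53 on) and 7.69 and 8.36 (recovery) (1.58 ± 0.18, adjusted p = 0.0117). It lay between the other groups, and its call was lost without control array 2 (adjusted p = 0.0741). CES2, a carboxylesterase gene, stood at 6.08 and 5.91 (control), 9.05 and 8.99 (p53 on) and 7.45 and 7.29 (recovery) (1.37 ± 0.17, adjusted p = 0.0179).

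The other higher genes had smaller differences. TNNC1, the troponin C of slow and cardiac muscle, was 2.84-fold above control, the ankyrin repeat gene ANKRD29 2.65-fold and LCN2, an iron-binding lipocalin on the NF-kB list, 2.43-fold. Over the 9 probe sets of TNNC1 the median difference was 0.43 log2 units. Its call was lost with the mean of probe sets, so that fold is uncertain. CYP2A7, a P450 gene with a close copy in CYP2A6, was at least 1.92-fold above control. Adjusted p for these lay between 0.023 and 0.0489, and each lost its call without at least 1 control array. Among genes named after their values were seen were GM2A, a lysosomal activator of glycolipid breakdown, 2.34-fold above control, WFDC2, a secreted protein gene, 2.35-fold, REEP2, which shapes the endoplasmic reticulum, 2.28-fold, NMNAT1, a nuclear NAD synthesis enzyme, 2.19-fold, and the epithelial keratin gene KRT19, 2.13-fold. KIR3DL2, a killer cell receptor gene of a family of near copies, was 2.31-fold above control, and TSNARE1 was 1.95-fold above. Adjusted p in limma for the genes named after their values were seen lay between 0.0373 and 0.0497. Over the 15 probe sets of TSNARE1 the median difference was 0.21 log2 units, and over the 7 of KIR3DL2 it was 0.48. Both of these folds are therefore uncertain.

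A few called genes were past both control and p53 on after recovery, with a call in each comparison; these comparisons share the recovery arrays. Against p53 on, 3.84% of all genes were called higher after recovery and 3.39% lower. CYP1B1, a cytochrome P450 induced through the aryl hydrocarbon receptor, stood at log2 signals of 4.70 and 6.78 (control), 5.26 and 7.02 (p53 on) and 6.59 and 8.08 (recovery). Recovery array 1 lay below control array 2, so the groups overlapped, while each experiment showed a rise of its own (1.6 ± 0.19, adjusted p = 0.0179). Against p53 on the rise was 1.20 ± 0.19 (adjusted p = 0.0106), and the call against control was lost without control array 1 (adjusted p = 0.0687). CYP1A1, of the same enzyme family, stood at 2.93 and 3.08 (control), 4.0 and 3.74 (p53 on) and 4.26 and 4.38 (recovery), at least 1.63-fold above control (1.32 ± 0.18 as measured, adjusted p = 0.0326). Unlike CYP1B1, it was not called against p53 on (0.45 ± 0.18, adjusted p = 0.188). The mean of its control and p53 on arrays lay under the dim-gene value. CYP1A1 thus passed the filter through its recovery arrays, and its call, lost with no filter on dim genes, is no support for a difference. Its call was lost without control array 1, control array 2 or recovery array 2, at adjusted p between 0.0946 and 0.0961. CYP1B1 and CYP1A1, the latter with this limit, were the calls among 22 genes of aryl hydrocarbon and xenobiotic response (0.207% of all genes were called higher). At an unadjusted p under 0.05 in limma, 7 of the 22 were higher and 2 lower, where 6.6% and 6.38% of all genes were. The list had a median of 0.19. AHRR and TIPARP, other targets of the receptor, differed by 0.08 and 0.45 and were not called.

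FABP1, the liver and gut fatty acid binding protein, stood at log2 signals of 2.82 and 3.36 (control), 3.36 and 3.37 (p53 on) and 4.82 and 4.49 (recovery). Only the recovery arrays exceeded the dim-gene value, so the gene passed the filter through the group where it is high, and its call is no support for a difference. It was at least 2.06-fold above control (1.57 ± 0.22 as measured, adjusted p = 0.0331, or 0.116 with no filter). WNT11, a secreted Wnt ligand, stood at 5.96 and 6.48 (control), 6.34 and 6.76 (p53 on) and 7.09 and 7.49 (recovery) (1.07 ± 0.17, adjusted p = 0.0413). GPR116, an adhesion receptor gene, differed from control by 1.11 ± 0.17 (adjusted p = 0.0413). PISD, a mitochondrial phospholipid enzyme on 1 probe set, was at least 2.14-fold above control, where its mean lay under the dim-gene value. PISD thus passed the filter through its other arrays, and its call is weak support for a difference. FABP1 lost its call when control array 1 was left out (adjusted p = 0.0937) and when recovery array 1 was (adjusted p = 0.0586).

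**Figure D3:**
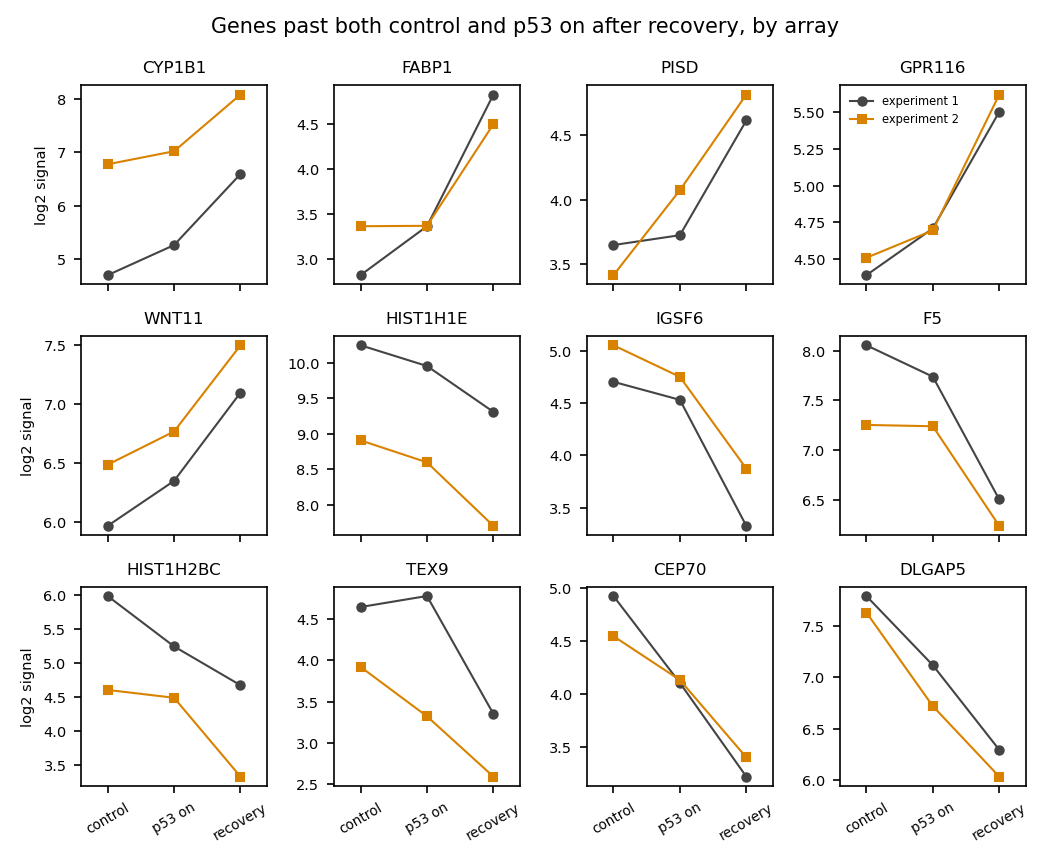
Log2 signal (y axis, a separate scale for each gene) in control, p53 on and recovery (x axis) for the 12 called genes that were also called in the same direction against p53 on; each line joins the arrays of 1 experiment. The first 5 panels rise at recovery and the other 7 fall, with F5 near its control level in p53 on and about 1 log2 unit lower after recovery.

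On the lower side of those genes, F5, the coagulation factor V gene, stood at log2 signals of 8.05 and 7.25 (control), 7.74 and 7.24 (p53 on) and 6.51 and 6.24 (recovery). It did not overlap control (-1.28 ± 0.19, adjusted p = 0.0377), and the difference with p53 on was -1.12 ± 0.19 (adjusted p = 0.0128). TEX9 differed from control by -1.31 ± 0.22 as measured (adjusted p = 0.0443) and CEP70, a centrosome gene, by -1.42 ± 0.19 as measured (adjusted p = 0.0308), both reaching levels under the dim-gene value. With that value in place of their recovery level, they were at least 1.59-fold and 2.17-fold lower. IGSF6 was at -1.28 ± 0.18 as measured, on a median that only 1 of its 7 probe sets followed, so that value is uncertain. F5, TEX9 and IGSF6 lost their calls without either control array and without recovery array 1.

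Genes of G2 and mitosis were the largest group among the falls. Of 71 measured genes, 17 were called lower (0.392% of all genes were) and 0 higher, and 70 lay below control. The median was -0.82 log2 units after recovery, -0.83 in experiment 1 and -0.79 in experiment 2, beside 0.03 over all genes. Both recovery arrays were below both control arrays for 57 of the 71 (14.5% of all genes), and 61 had an unadjusted p under 0.05 on the lower side (6.38% of all genes). With p53 on, the median of the same genes was -0.74, with 41 called lower (6.28% of all genes were). In bulk RNA, fewer cells in G2 and mitosis and less RNA per such cell cannot be told apart.

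The promoters of the called mitosis genes are shown because most share a short element. The cell cycle homology region, TTTGAA, is a known docking element of the DREAM and MuvB complexes in genes of late cell cycle. It was searched on both strands in RefSeq promoters of GRCh38.p14, from 250 bases before to 50 after each gene's start, which 11200 of the genes tested had. In the stretches below, printed 5′ to 3′ on the gene's own strand and lying before its start, capitals mark each match of the element on either strand, where TTCAAA is the reverse complement.
ASPM (chr1:197146761-197146826, minus strand): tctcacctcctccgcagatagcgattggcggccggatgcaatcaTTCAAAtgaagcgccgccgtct
DLGAP5 (chr14:55191673-55191738, minus strand): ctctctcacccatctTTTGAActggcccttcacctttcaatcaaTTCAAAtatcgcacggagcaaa
HMMR (chr5:163460566-163460631, plus strand): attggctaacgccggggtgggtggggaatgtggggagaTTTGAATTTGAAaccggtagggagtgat
MKI67 (chr10:128126431-128126496, minus strand): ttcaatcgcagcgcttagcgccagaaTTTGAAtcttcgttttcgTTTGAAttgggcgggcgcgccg
DEPDC1 (chr1:68497088-68497153, minus strand): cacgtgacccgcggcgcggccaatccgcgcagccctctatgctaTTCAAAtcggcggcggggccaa
KIF4A (chrX:70290026-70290091, plus strand): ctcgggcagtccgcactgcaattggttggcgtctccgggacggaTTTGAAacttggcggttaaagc
TOP2A (chr17:40418026-40418091, minus strand): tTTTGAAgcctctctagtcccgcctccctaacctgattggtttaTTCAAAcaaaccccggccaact
SMC4 (chr3:160399531-160399596, plus strand): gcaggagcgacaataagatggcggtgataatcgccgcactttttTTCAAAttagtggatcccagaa

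Of the 17 called mitosis genes, 15 had a promoter entry, and 13 of those 15 (86.7%) held TTTGAA, 8 of them before the start. Over all genes with an entry the share was 9.54%. Over the mitosis list it was 64.4% (38 of 59), and over the replication list, where no gene was called, 2.27% (1 of 44). Over the histone list it was 35.9% (14 of 39), with 3 of the 8 called histone genes that had an entry. CCAAT, another common promoter element, was present in 73.3% of the called mitosis genes and in 35.9% of all. It was also in 34 of 39 histone promoters and in 24 of 44 replication promoters. Among called higher genes, 1 of 20 (5%) held TTTGAA. A match is a run of letters and not a measured binding site. CENPE, the mitosis gene with the largest fall, has an entry without these letters in its window.

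The called mitosis genes that act at the kinetochore or spindle are given first, in an order chosen after their values were seen. CENPE stood at log2 signals of 6.26 and 6.00 (control), 5.18 and 4.71 (p53 on) and 4.66 and 4.28 (recovery). It was lowest after recovery on both arrays, at -1.66 ± 0.17 (adjusted p = 0.00845). ASPM, which organises spindle poles, stood at 7.88 and 7.17 (control), 6.76 and 6.13 (p53 on) and 6.40 and 5.53 (recovery) (-1.56 ± 0.17, adjusted p = 0.0117). DLGAP5, a spindle assembly factor, stood at 7.79 and 7.63 (control), 7.12 and 6.72 (p53 on) and 6.29 and 6.03 (recovery) (-1.55 ± 0.17, adjusted p = 0.0117). It was also lower than with p53 on (-0.75 ± 0.17, adjusted p = 0.0352). HMMR, a hyaluronan receptor that binds spindle microtubules, was at -1.50 ± 0.18 (adjusted p = 0.0151). The kinetochore genes NDC80 and CASC5 were at -1.22 and -1.04, CENPF at -1.18, and the kinesin genes KIF14, KIF20B, KIF4A and KIF2C at -1.22, -1.20, -1.11 and -1.06. DEPDC1, which acts in mitosis, was at -1.46.

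Regulators and chromosome proteins were also among the falls. FOXM1, the transcription factor that drives G2 genes, stood at log2 signals of 8.57 and 8.31 (control), 7.02 and 7.27 (p53 on) and 7.03 and 7.01 (recovery). The recovery and p53 on arrays overlapped and both lay below control (-1.42 ± 0.19, adjusted p = 0.0267). MKI67, the proliferation antigen that coats mitotic chromosomes, stood at 9.54 and 9.27 (control), 8.19 and 8.50 (p53 on) and 7.91 and 7.91 (recovery) (-1.49 ± 0.19, adjusted p = 0.0252). TOP2A, the topoisomerase of chromosome separation, was at -1.09 ± 0.17, SMC4, a condensin subunit, at -0.99 ± 0.17, and CDCA3, a trigger of mitotic entry, at -1.09 ± 0.18, with adjusted p between 0.0413 and 0.0492.

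The 54 other mitosis genes were not called. PLK1, a mitotic kinase gene, was at -0.91 ± 0.17 (adjusted p = 0.0622), and BUB1, a checkpoint kinase gene, at -0.89 ± 0.17 (adjusted p = 0.0663). CCNB1, which encodes cyclin B1, stood at 10.03 and 10.01 (control), 9.24 and 9.36 (p53 on) and 8.56 and 9.46 (recovery) (-1.01 ± 0.24, adjusted p = 0.12). Both recovery arrays lay below control, but they differed from each other by more than the control arrays did. BUB3, a checkpoint protein gene, was the single member above control, at 0.13 ± 0.17 (adjusted p = 0.786), and BIRC5, which encodes survivin, was at -0.11 ± 0.19 (adjusted p = 0.851).

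The number of mitosis calls moved with the arrays while the median hardly did. Without the block 0 of 71 were called in limma, with 44 lower at an unadjusted p under 0.05. Without control array 1 there were 3 (CENPE, DEPDC1 and DLGAP5), without control array 2 there was 1 (MKI67), without recovery array 1 there were 8, without recovery array 2 there were 7, and without either p53 on array there were 31. In these fits the median lay between -0.83 and -0.80.

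**Figure D4:**
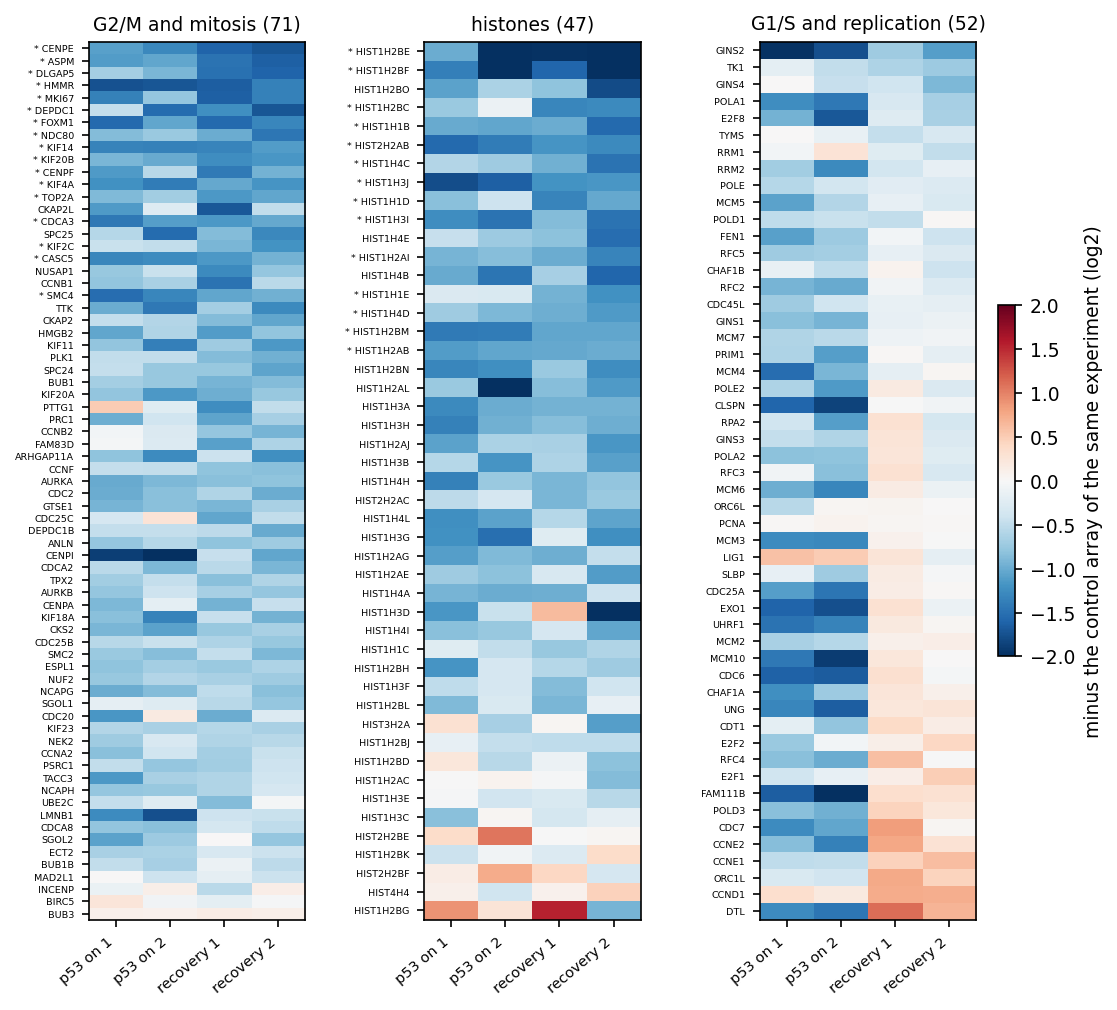
Heat maps of the measured genes of 3 lists, each row a gene and each column an array of p53 on or recovery minus the control array of the same experiment, with colour in log2 units limited to -2 and 2; an asterisk marks a gene called after recovery. In the mitosis list the recovery columns are blue for 70 of 71 genes on average, in the histone list for 42 of 47, and in the replication list they divide into 26 below and 26 above control.

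Replication-dependent histone genes, which are transcribed in S phase and lack a poly(A) tail, formed the other group of falls. Of 53 on the array 47 passed the filter, and 14 of these were called lower (0.392% of all genes were) and 0 higher. In all 42 of the 47 lay below control, with a median of -0.85, or -0.82 in experiment 1 and -1.04 in experiment 2, beside -0.80 with p53 on. Both recovery arrays were below both control arrays for 17 of 47 (14.5% of all genes). The experiments differed in level, and the median log2 signal of the 47 in control was 6.41 in experiment 1 and 5.53 in experiment 2.

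HIST1H2BE stood at log2 signals of 6.93 and 5.21 (control), 5.93 and 2.94 (p53 on) and 4.95 and 3.19 (recovery) (-2.0 ± 0.30, adjusted p = 0.0377). Over its 5 probe sets the median difference was smaller, at -0.85. HIST1H2BF stood at 8.89 and 7.33 (control), 7.51 and 4.97 (p53 on) and 7.30 and 4.96 (recovery) (-1.98 ± 0.24, adjusted p = 0.0179). In both genes experiment 1 ran higher than experiment 2 in every group, and the fall was seen within each. HIST1H2BM was called with little difference between experiments, at 8.87 and 8.91 (control), 7.45 and 7.51 (p53 on) and 7.83 and 7.86 (recovery) (-1.04 ± 0.17, adjusted p = 0.0413). HIST1H1E, a linker histone gene, stood at 10.25 and 8.91 (control), 9.96 and 8.60 (p53 on) and 9.31 and 7.70 (recovery) (-1.08 ± 0.17, adjusted p = 0.0413). It was lower than with p53 on too (-0.77 ± 0.17, adjusted p = 0.0343), as was HIST1H2BC (-0.86 ± 0.20, adjusted p = 0.0403).

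Histone genes are near-identical copies on 1 to a few probe sets each, so single histone values are uncertain. Without the block 0 of 47 were called in limma, with 9 lower at an unadjusted p under 0.05. Without control array 1 there was 1 call (HIST1H2BF), and without control array 2 there were 0, with 31 lower unadjusted. There were 13 without recovery array 1, 2 without recovery array 2 and 24 without either p53 on array. The octamer ATTTGCAT, an element known from H2B promoters and searched on both strands, was present in 7 of 10 H2B promoters with an entry, in 31.0% of the other histone promoters and in 1.37% of all promoters.

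Genes of G1/S and DNA replication had a median near control. Of 52 measured, 0 were called in either direction in limma, with 5 higher and 5 lower at an unadjusted p under 0.05, and 26 lay on each side of control. Their median was 0.01 after recovery, 0.12 in experiment 1 and -0.07 in experiment 2. With p53 on it was -0.84, and 30 of them were called lower there (6.28% of all genes were). The difference between the replication and mitosis lists was not tested. CDC6, a loader of the replicative helicase, stood at log2 signals of 9.2 and 9.57 (control), 7.58 and 7.90 (p53 on) and 9.53 and 9.52 (recovery) (0.14 ± 0.18, adjusted p = 0.795). MCM3, a subunit of that helicase, stood at 8.32 and 8.65 (control), 7.06 and 7.36 (p53 on) and 8.40 and 8.65 (recovery) (0.04 ± 0.17, adjusted p = 0.944). Recovery and control overlapped for both genes.

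The extremes of the replication list lay on both sides. DTL, a ubiquitin ligase adaptor that clears licensing factors, stood at log2 signals of 7.57 and 7.76 (control), 6.32 and 6.32 (p53 on) and 8.70 and 8.44 (recovery) (0.90 ± 0.18, adjusted p = 0.0801). GINS2, a subunit of the replicative helicase, stood at 7.44 and 7.58 (control), 5.46 and 5.83 (p53 on) and 6.74 and 6.48 (recovery) (-0.90 ± 0.20, adjusted p = 0.104). Neither passed the test although neither overlapped control. The cyclin genes of G1 were above control in each experiment, CCNE1 by 0.54 ± 0.17 (adjusted p = 0.229), CCNE2 by 0.53 ± 0.19 (adjusted p = 0.29) and CCND1 by 0.74 ± 0.17 (adjusted p = 0.112). Genes of homologous recombination and checkpoint signalling had 0 of 30 called, with 0 higher and 3 lower unadjusted and a median of -0.09. FANCD2, which acts in cross-link repair, had the lowest p there (-0.58 ± 0.18, adjusted p = 0.239).

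Of the 55 lower genes, 22 were on none of the lists. SPAG5 (a spindle protein gene, -1.17), CIT (a kinase of cytokinesis, -1.14), DIAPH3 (an actin-nucleating formin, -1.24), CDKN3 (a phosphatase of cyclin-dependent kinases, -1.26), PBK (a mitotic kinase, -1.21), TROAP (-1.09), MNS1 (-1.22) and GAS2L3 (-1.04) were called with adjusted p between 0.0356 and 0.0443. These were named after their values were seen. AQP3, a water and glycerol channel of epithelium, stood at log2 signals of 9.10 and 8.51 (control), 7.79 and 7.86 (p53 on) and 7.27 and 7.43 (recovery) (-1.46 ± 0.22, adjusted p = 0.0377). GDA, the guanine deaminase gene, stood at 8.16 and 7.64 (control), 5.51 and 5.88 (p53 on) and 6.73 and 6.33 (recovery) (-1.37 ± 0.23, adjusted p = 0.0479). GDA after recovery lay between the other groups, whereas AQP3 lay below both.

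FREM2, a basement membrane protein gene, was at -1.37 ± 0.20 (adjusted p = 0.0356). SAMHD1, which hydrolyses deoxynucleotides, was at -1.07, MAOB, a monoamine oxidase gene, at -1.12, FRRS1, a ferric reductase gene, at -1.05 and HOXC6, a homeobox gene, at -1.03. PTPRR, a tyrosine phosphatase gene, fell to under the dim-gene value and was at least 1.91-fold lower. FREM2 and GDA lost their calls without either control array and without recovery array 2.

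Lists of intestinal differentiation genes held 3 calls, where 0.599% of all genes were called in either direction. Of the 3, FABP1 passed the filter only through its recovery arrays, so its call is no support for a difference. Among 21 absorptive enterocyte genes, FABP1 was called higher and CEACAM5, the carcinoembryonic antigen gene, lower (-1.04 ± 0.18, adjusted p = 0.0476), with a list median of 0.02. Among 16 goblet and secretory genes, AGR2, a disulfide isomerase needed for mucus, was called lower. It stood at log2 signals of 7.10 and 6.31 (control), 6.57 and 5.54 (p53 on) and 6.15 and 5.08 (recovery) (-1.09 ± 0.17, adjusted p = 0.0413). CEACAM5 and AGR2 lost their calls without any single control or recovery array. Among 26 stem and Wnt genes 0 were called, with 2 higher and 3 lower unadjusted. LGR5, a receptor of intestinal stem cells, stood at 8.61 and 8.62 (control), 5.26 and 5.83 (p53 on) and 7.61 and 7.59 (recovery). Both of its recovery arrays lay between the other groups (-1.01 ± 0.20, adjusted p = 0.0754).

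**Figure D5:**
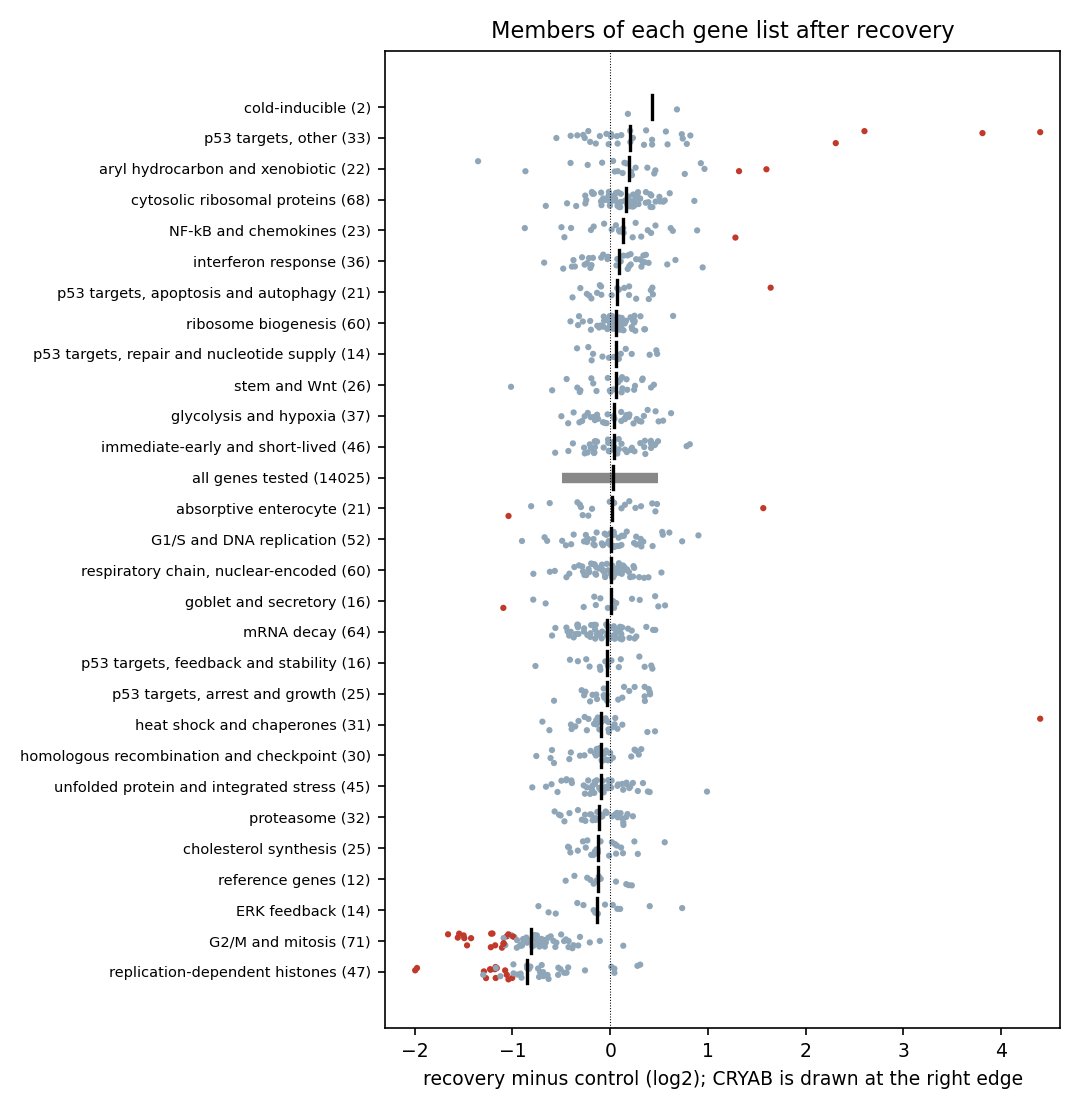
Difference between recovery and control (x axis, log2 units) for the measured members of each gene list, with their number in brackets; red points were called, black ticks are list medians and the grey bar spans the 5th to 95th percentile of all 14025 genes. The mitosis and histone medians lie at -0.82 and -0.85 and the other lists' medians between -0.14 and 0.43.

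The remaining lists held 1 call or none. Genes of mRNA decay had 0 of 64 called in limma, with 1 higher and 5 lower unadjusted and a median of -0.03. AUH, an RNA-binding enoyl-CoA hydratase gene, had the smallest p there (-0.60 ± 0.17, adjusted p = 0.198). Immediate-early and other short-lived transcripts had 0 of 46 called, with 5 higher and 3 lower unadjusted and a median of 0.04. MAFF, a small Maf factor gene, had the smallest p there (0.78 ± 0.17 as measured, adjusted p = 0.106), from a control level under the dim-gene value. Only 2 of its 5 probe sets were higher, so that value is uncertain. The cold-inducible genes RBM3 and CIRBP, which respond to mild cooling, differed by 0.68 and 0.18 and were not called, beside a list median of 1.08 with p53 on at 32 °C.

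Interferon response genes had 0 of 36 called (2 higher and 1 lower unadjusted), with IFI35 at 0.95 ± 0.23 (adjusted p = 0.13). The NF-kB and chemokine list had LCN2 alone of 23, and ERK feedback genes had 0 of 14 (1 and 3 unadjusted). Genes of the unfolded protein and integrated stress response had 0 of 45 (2 and 8, where 6.6% and 6.38% of all genes were), with a median of -0.10. There the transcription factor gene ATF5 was at -0.80 ± 0.19 (adjusted p = 0.117). DDIT3, on 1 probe set, went the other way, at 0.99 ± 0.23 (adjusted p = 0.12). Glycolysis and hypoxia genes had 0 of 37 (3 and 2), where the glucose transporter gene SLC2A1 was at 0.62 ± 0.17 (adjusted p = 0.185), and cholesterol synthesis had 0 of 25 (1 and 2), where the reductase gene TM7SF2 was at 0.56 ± 0.18 (adjusted p = 0.231). None of these values passed the test.

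Housekeeping lists held 0 calls, with medians between -0.13 and 0.16. Cytosolic ribosomal protein genes had 0 of 68 called (9 higher and 0 lower unadjusted, where 6.6% and 6.38% of all genes were). Of these 68, 49 lay above control, beside 7585 of all 14025 genes. Their median was 0.16, beside 0.03 over all genes. RPL32 had their smallest p (0.86 ± 0.26, adjusted p = 0.208), on a median that 1 of its 3 probe sets followed. Ribosome biogenesis genes had 0 of 60 called (1 and 0), with the smallest p at TAF1B (0.64 ± 0.20, adjusted p = 0.229). Nuclear-encoded respiratory chain genes had 0 of 60 (2 and 3), with the smallest p at NDUFA12 (-0.79 ± 0.21, adjusted p = 0.169), and proteasome genes 0 of 32 (0 and 4), with the smallest p at PSMD4 (-0.57 ± 0.20, adjusted p = 0.28). The 12 reference genes had 0 calls at either threshold, a median of -0.13 and HPRT1 lowest (-0.46 ± 0.21, adjusted p = 0.416).

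The promoter of ABCA12 is shown because its recovery level lay between the other groups and its window holds a p53 half-site, a stretch of 10 bases bound by a p53 dimer. The half-site by its common consensus, searched on both strands, was in the windows of ABCA12, GPR116 and PISD, 3 of the 20 called higher genes with an entry (15%), beside 5.28% of all promoters. It was also in 13.3% of called mitosis promoters (2 of 15), 11.4% of replication promoters and 10.3% of histone promoters. Printed 5′ to 3′ with the half-site in capitals, the stretch lies 72 bases before the ABCA12 start.
ABCA12 (GRCh38.p14 chr2:215138683-215138752, minus strand): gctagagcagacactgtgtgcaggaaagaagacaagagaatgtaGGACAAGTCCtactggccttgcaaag

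The precision is limited by the number of arrays, which have no read depth. The 6 arrays had medians between 5.24 and 5.31 and correlated across genes, which are not independent replicates, at r between 0.911 and 0.975. Of the markers of other cell types, 5 of 8 for fibroblasts, 5 of 7 for leukocytes and 2 of 5 for endothelium were over the dim-gene value, among them LYZ at a mean of 11.2, COL1A1 at a mean of 5.57 and TEK at 4.89. The log2 of the summed fibroblast signal was 6.98 and 7.06 in control and 7.05 and 7.33 after recovery, and of the endothelial signal 6.13 and 6.61, then 6.16 and 6.22. Their part in the results was not tested.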

How the data were processed

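RNA from 6 cultures was labelled from 100 ng and hybridised to Affymetrix Gene 1.0 ST arrays, per the labels' protocols. The values deposited by the authors are on a log2 scale, judged from their range of -0.85 to 13.14, per exon-level probe set. Not given in the sources used here are the program, the background step and the normalization.

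Of 257430 probe sets, the 224320 with 1 gene symbol were used (10159 had several and 22951 had none listed). Probe sets of a gene were summarised by their median on each array, over 10 probe sets in the median gene and 1 in 1060 of 18701 genes. The lowest 25% by mean signal (log2 under 3.62) were left out, leaving 14025. A gene whose group mean was under 3.62 has a fold given as "at least", with that mean set to 3.62. The p53 gene itself was not analysed, and 1 gene of the naming rule is not reported here.

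limma 3.58.1 in R 4.3.3 fitted 3 groups and the experiment number as a replicate block over 6 arrays, with 2 residual degrees of freedom, Benjamini-Hochberg adjustment over 14025 genes, and calls at an adjusted p under 0.05. Arrays of the same number deviated together from their group means (r across genes 0.551, 0.496 and 0.63 for the pairs of groups), and the descriptions name the number as that of an experiment. An exact permutation test of 2 against 2 arrays cannot pass 0.05. The fit was checked on simulated data.

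Named genes are, among called genes of 1 sign in both experiments, the 15 with the largest rise and the 15 with the largest fall (small RNAs, pseudogenes, antisense and uncharacterised loci left out), plus the 2 largest calls, or else the smallest p, of each list, and the p53 targets CDKN1A, MDM2, TP53INP1, GADD45A, FAS and CRYAB. The rule's pattern for pseudogenes also dropped DLGAP5, AQP3 and CEP70. These and the other genes named were chosen after their values were seen. The comparison, lists and tests were chosen with earlier results of these data known. Alternatives were the fit without the block, only the 4 arrays compared, other filters, quantile normalization, mean over probe sets, at least 3 probe sets, a variance trend, a 2-fold minimum and each array left out.

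Promoters are from RefSeq (GRCh38.p14), matched by symbol for 11200 of 14025 genes.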

Additional observations from a re-analysis of the deposited data

How the results depend on the processing

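The counts of 29 higher and 55 lower genes moved with the processing, while the 84 called genes kept their direction under every alternative in which they were tested. Without the replicate block the counts were 4 and 0, with 404 and 342 genes at an unadjusted p under 0.05 in limma. They were 94 and 152 with only the 4 arrays compared, 10 and 1 with no filter on dim genes, 84 and 169 with the lowest 50% left out, 15 and 17 after quantile normalization, 121 and 206 with the mean of probe sets and 79 and 162 with a variance trend. Quantile normalization thus gave a nearly even split. With at least 3 probe sets they were 27 and 49, and with a 2-fold minimum 28 and 54. Leaving out each array in turn gave between 13 and 94 higher and between 4 and 152 lower. A fit without 1 p53 on array matches the other exactly and so equals the fit on the 4 arrays. The direction turned for PHLDA3, at 0.17 with the mean of probe sets, and for CDKN1A, between -0.28 and 0.16 with each array left out. Neither was called. The causes of these shifts were not tested. Signals near the dim-gene value limit what can be said of CYP1A1, FABP1, LCN15, CYP2A7, PISD, TEX9, CEP70, IGSF6 and PTPRR.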

Other observations

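Genes were also picked by p53 on against control in 1 experiment and read in the other, a description chosen after the data were seen. Of 62 genes at least 2 log2 units higher with p53 on in experiment 1, the median log2 signals in experiment 2 were 4.78 in control, 7.32 in p53 on and 5.39 after recovery, and 15 of the 62 were over 1 log2 unit above control after recovery. Of 52 such genes picked in experiment 2, the medians in experiment 1 were 4.84, 7.50 and 5.29, and 13 of the 52 were over 1 log2 unit above control. Of 329 genes at least 1 log2 unit lower with p53 on in experiment 1, the medians in experiment 2 were 6.38, 5.25 and 5.97, and 48 were over 1 log2 unit below control after recovery. Of 614 picked in experiment 2, the medians in experiment 1 were 6.42, 5.75 and 6.32, and 32 were over 1 log2 unit below. In each of these sets the recovery medians lay nearer to control than to p53 on. At a cutoff of 2 log2 units on the lower side few genes were picked. For 8 picked in experiment 1, the median differences from control in experiment 2 were -1.38 with p53 on and -0.81 after recovery. For 18 picked in experiment 2, those in experiment 1 were -1.16 and -0.15.

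AKR1C3, an aldo-keto reductase gene of steroid and prostaglandin metabolism, stood at log2 signals of 8.71 and 9.83 (control), 9.98 and 10.72 (p53 on) and 9.72 and 10.68 (recovery) (0.93 ± 0.18, adjusted p = 0.0703 in limma). The groups overlapped, and within each experiment recovery was close to p53 on. UGT1A6, a glucuronidation enzyme gene on 1 probe set, stood at 6.49 and 6.49 (control), 5.34 and 6.51 (p53 on) and 5.14 and 5.14 (recovery) (-1.35 ± 0.28, adjusted p = 0.0912 in limma). UGT1A genes share exons, so its value may be split among them, and the p53 on arrays did not match each other.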
